A study of Mus musculus with 24 samples.

Results

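RNA of kidneys from male mice differed between the middle of the active period and the middle of the inactive period, above all in genes of the circadian clock. Beyond the clock, single genes changed in vitamin D breakdown, lactate handling and membrane transport, and some genes of sterol synthesis and protein folding were higher. The male kidneys made up 12 of the 24 libraries of the study, 6 titled MA25 to MA30 and labelled active, and 6 titled MA31 to MA36 and labelled inactive. The replicate numbers used here are those in the titles. The other 12 libraries are kidneys of female mice, 6 active and 6 inactive, and they enter here for the estimate of the spread and where the change in males is set beside that in females. Libraries were made from poly A RNA of whole kidney. Nothing was given to the animals as far as the labels tell, since their treatment entry holds only the period. The sources used here name no strain, age, genotype, light schedule or clock hour. They also leave unsaid if libraries stand for separate animals, so a p-value speaks of the spread among these samples, some of which may be technical.

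The kidney runs on a daily cycle. In each cell the proteins of Arntl (the newer name is Bmal1) and Clock or Npas2 switch on genes with an E-box, among them the Period, Cryptochrome, Rev-erb and PAR bZIP genes, whose proteins then repress the activators or pass the rhythm on. Rev-erb proteins and their rivals, the ROR proteins, act on a shared DNA element and set the level of Arntl, Npas2, Nfil3 and Cry1. Mice are active at night, when they eat, and the filtered load, sodium and potassium excretion and blood corticosterone of rodents follow the day as well.

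All levels are the authors' normalized counts, that is, reads of a gene divided by 1 size factor per library, so they compare libraries and not genes of different length. Of 17333 genes with a mean of at least 10 normalized counts over the 24 libraries, 1461 were higher in active males (8.43%) and 1204 lower (6.95%), together 2665 (15.4%), at an adjusted p under 0.05 in limma with Benjamini-Hochberg adjustment over all tested genes. Changes are log2 folds of the count plus 1, active over inactive, ± SE. The median over all tested genes was 0.01, and 5270 genes had an unadjusted p under 0.05. Most changes were small: called genes had a median fold of 1.25, 913 of them changed by less than 1.2-fold, and 79 rose and 132 fell by at least 2-fold. Other scalings shifted this split. With the upper quartile 1181 genes rose and 1521 fell, and with equal library totals 1130 rose and 1458 fell. In 395 genes every active library lay above every inactive one, and in 348 every one lay below, together 4.29% of tested genes.

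Defining markers of every nephron segment were present, with summed normalized counts of at least 190522 for each part of the proximal tubule, while 4 of 10 adrenal markers were at 0 in every library. The 12 male libraries held 32037243 to 37223099 reads and resembled each other closely, with correlations of log2 values between 0.970 and 0.984. On the first principal component, with 19.96% of their variance, all 6 active libraries were on one side of 0 and all 6 inactive ones on the other, with active replicate 26 at the active end. Active replicates 26 and 29 also differed from the rest in a way that runs through the table: short transcripts were relatively high in them. Outside ribosomal and respiratory genes, transcripts of up to 1 kb stood at a median of 0.25 and 0.13 on the log2 scale above their mean over the 12 libraries in these 2, and between -0.06 and 0.08 in the other 10. Calls were therefore also made without both, a step chosen after the data were seen, which left 696 higher and 646 lower. Of the genes named for males in what follows, the following lost their calls in that step, at adjusted p-values in limma of 0.0515 to 0.221: Aqp1, Aurkb, Cenpf, Cldn8, Col1a2, Cry2, Cyp2r1, Dnajb11, Dusp1, Fkbp5, Hmmr, Hsd17b11, Hsp90ab1, Hspa8, Jun, Kcnj1, Kcnq1, Klf9, Mcm6, mt-Nd5, Myc, Nat8f5, Rasd1, Rhbg, Rhcg, Rpl8, Slc13a1, Slc13a3, Slc5a12, Trpm6, Wnk4 and Zfp36. Leaving out active replicate 26 alone gave 1015 higher and 820 lower, against 1866 and 1408 without active replicate 25. Wherever a call or count is given without several replicates, each was left out alone, unless the word both is written.

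**Figure D1:**
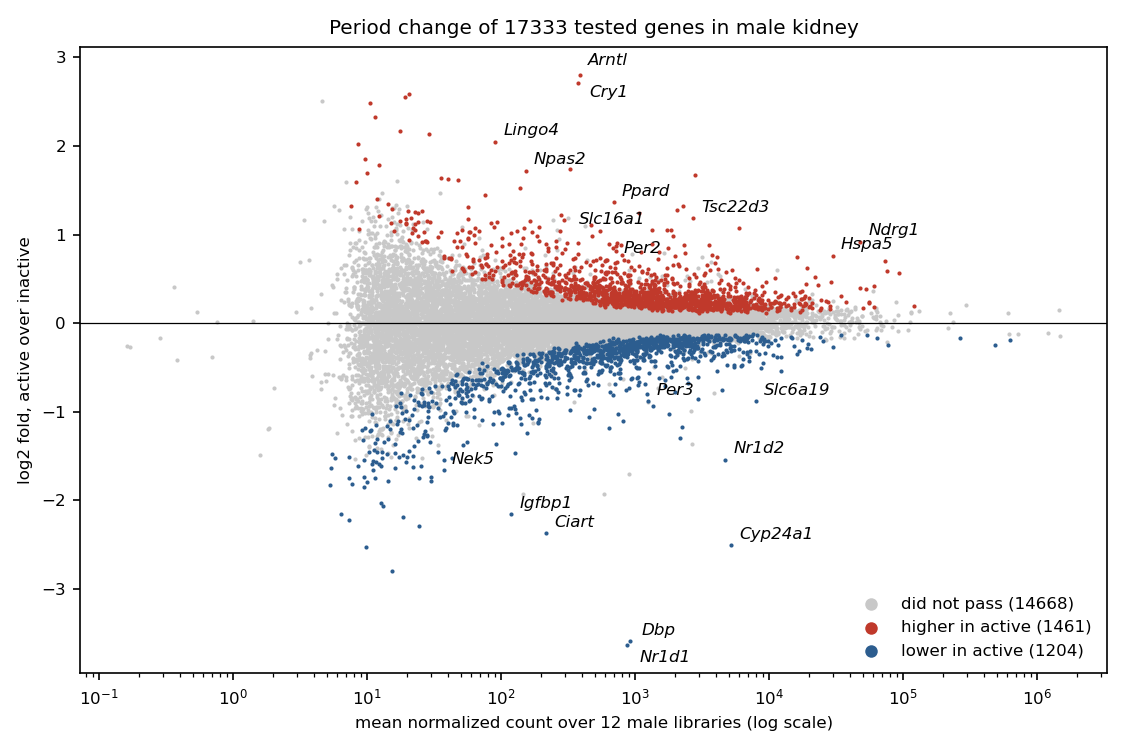
Each point is 1 of the 17333 tested genes, placed by its mean normalized count over the 12 male libraries (x axis, log scale) and its log2 fold, active over inactive (y axis). Genes that passed are coloured by direction. The labelled genes are a selection of clock genes and of genes outside the clock named in the text, not always the largest changes. Nr1d1 and Dbp are lowest and Arntl and Cry1 highest among those labelled.

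The arm of the clock that moves with Arntl was high in the active period. 6 of its 6 genes rose, with a median log2 fold of 1.73, and in all 6 the active libraries lay above the inactive ones without overlap. Arntl (ENSMUSG00000055116) ran from 405 through a median of 719 to 793 in the active libraries and from 39.9 through 108 to 150.2 in the inactive ones, 6.60-fold apart in the mean (log2 fold 2.80 ± 0.34, adjusted p = 1.47e-05). Its partner Clock differed far less, at 2357 ± 188 and 1865 ± 87.5 normalized counts (mean ± SD, n = 6 libraries a group, active first), log2 fold 0.33 ± 0.06, adjusted p = 2.60e-04. Npas2, which can stand in for Clock, ran from 147 through a median of 235 to 332 in the active libraries and from 38.0 through 70.4 to 95.6 in the inactive ones (log2 fold 1.72 ± 0.21, adjusted p = 3.73e-06).

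The targets of the shared ROR and Rev-erb element moved with Arntl. Cry1, a repressor of the activators that peaks late, ran from 568 through a median of 652 to 767 in the active libraries and from 57.7 through 100.3 to 164 in the inactive ones, a rise of 6.35-fold (log2 fold 2.71 ± 0.26, adjusted p = 9.63e-07). The lowest active library stood well above the highest inactive one. Nfil3, a repressor that competes with the PAR bZIP factors, rose 3.23-fold (log2 fold 1.75 ± 0.21, adjusted p = 7.45e-06).

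The Rev-erb and PAR bZIP genes stood the other way. Nr1d1 (ENSMUSG00000020889), the gene of Rev-erb alpha, ran from 85.2 through a median of 131 to 187 in the active libraries and from 1159.9 through 1713 to 1923 in the inactive ones, 12.2-fold lower in the active period (log2 fold -3.63 ± 0.17, adjusted p = 9.30e-13). Dbp (ENSMUSG00000059824), the PAR bZIP factor, ran from 75.2 through a median of 133 to 294 in the active libraries and from 1425 through 1716 to 1835 in the inactive ones (log2 fold -3.59 ± 0.22, adjusted p = 5.13e-10), and 1 active library, replicate 29, sat well above the other 5. Nr1d2, the gene of Rev-erb beta, was at 2411 ± 375 and 6967 ± 526 (log2 fold -1.54 ± 0.11, adjusted p = 2.06e-09). Of the PAR bZIP relatives, Tef fell with some overlap between the groups, at 6055 to 9823 in the active and 9500.1 to 11179 in the inactive libraries (log2 fold -0.45 ± 0.09, adjusted p = 0.00228), while Hlf did not pass, at 5765 ± 244 and 5809 ± 359 (log2 fold -0.01 ± 0.06, adjusted p = 0.93).

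The other clock genes were not in step. Over the Period, Rev-erb and PAR bZIP arm, which holds the genes just described too, of the 13 tested genes, 2 were higher, 7 lower and 4 did not pass, with a median of -0.45. The E-box repressor Ciart fell 5.19-fold, from 256 to 448 in the inactive libraries to 42.8 to 82.1 in the active ones (log2 fold -2.37 ± 0.25, adjusted p = 7.52e-07). Its relative in function Bhlhe41 fell 1.98-fold (log2 fold -0.96 ± 0.17, adjusted p = 3.46e-04), while Bhlhe40 did not pass (log2 fold 0.02 ± 0.14, adjusted p = 0.951). The 3 Period genes, repressors that peak near the turn to night, divided. Per3 fell (log2 fold -0.88 ± 0.13, adjusted p = 1.11e-04), while Per2 rose, at 2052 to 3065 in the active and 979.7 to 2012 in the inactive libraries (log2 fold 0.98 ± 0.22, adjusted p = 0.00479). Per1 did not pass (log2 fold -0.24 ± 0.38, adjusted p = 0.718). Per1 ran from 564 through a median of 793 to 1407 in the active libraries and from 359 through 1221 to 1890.1 in the inactive ones, so each group held both high and low libraries. Cry2, the sister of Cry1, rose by far less than Cry1, with overlapping groups (log2 fold 0.32 ± 0.09, adjusted p = 0.0141). Usp2, a clock-driven ubiquitin protease, did not pass (log2 fold 0.11 ± 0.12, adjusted p = 0.596).

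**Figure D2:**
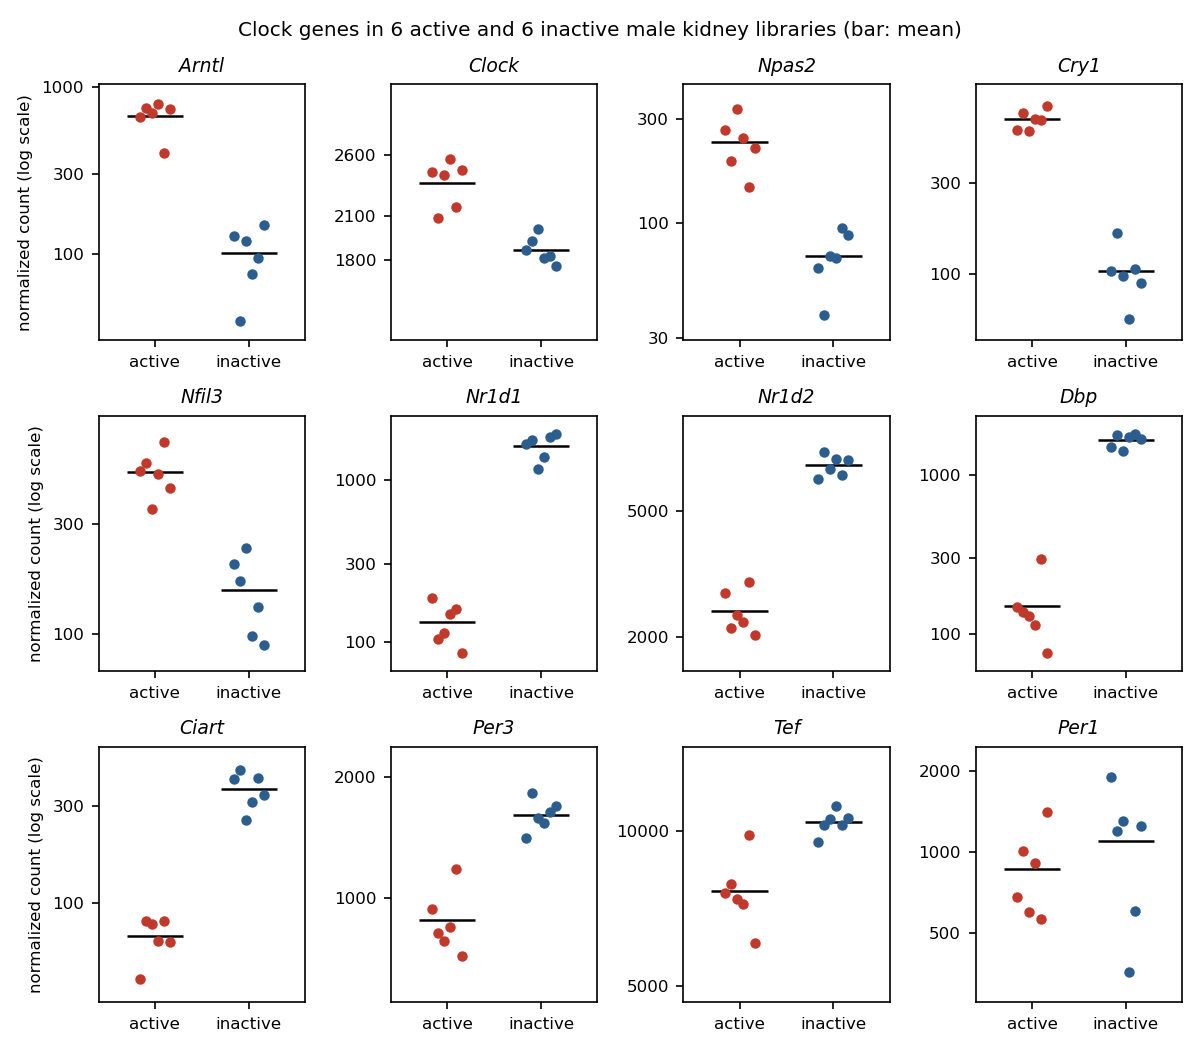
Normalized counts (y axis, log scale) of 12 clock genes in each of the 12 male libraries, 6 active and 6 inactive, with a bar at the mean of each group. The groups of Arntl, Clock, Cry1, Nfil3 and Npas2 lie apart with the active one higher and those of Nr1d1, Dbp, Ciart, Nr1d2 and Per3 apart with the active one lower, while Tef and Per1 overlap.

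The stretch just before the start of a gene is one place where clock proteins are known to bind, and a set is shown here because its members moved in both directions. The letters of an E-box (CACGTG, a palindrome), a D-box of the PAR bZIP factors (TTATGNAA) and the ROR and Rev-erb element (TAGGTCA) were searched on both strands in the 250 bases before each start in RefSeq's table for GRCm38.p6, an older build than the GRCm39 that the submitters name. Of 32851 promoters, 6.02% hold the E-box, 3.07% the D-box and 2.23% the ROR and Rev-erb element. These are shares of single promoters, while the counts that follow are of genes with a match at any of their starts. The 2 are thus not alike, since a gene with several starts has more chances of a match. Of the 19 clock genes 16 are matched in the table, and the E-box is found in 5 of these (Bhlhe41, Ciart, Cry1, Per1 and Tef), the D-box in 2 (Per1 and Per3) and the ROR and Rev-erb element in 1 (Nfil3). Among 18 other matched genes with the largest changes, the E-box is in 1 (Gprin3), the D-box in 2 (Col13a1 and Miox) and the ROR and Rev-erb element in 1 (Adamtsl5). The cAMP element (TGACGTCA), the unfolded protein element (TGACGTGG) and the heat shock element (TTCNNGAA) were searched as well. They are in 1.55%, 0.563% and 7.17% of all promoters. Of the 34 matched genes, the first is in 1 (Hlf) and the others in 0. A match is a string of letters and no proof of binding. In the 80 bases printed for each, 5′ to 3′ along the gene's strand, capitals mark the matches, which for Ciart are 2 E-boxes.
Ciart, chr3:95882244-95882323, minus strand: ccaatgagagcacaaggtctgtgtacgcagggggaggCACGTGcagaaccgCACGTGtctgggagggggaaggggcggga
Cry1, chr10:85185072-85185151, minus strand: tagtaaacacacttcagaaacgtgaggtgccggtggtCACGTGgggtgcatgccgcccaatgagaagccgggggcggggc
Bhlhe41, chr6:145865531-145865610, minus strand: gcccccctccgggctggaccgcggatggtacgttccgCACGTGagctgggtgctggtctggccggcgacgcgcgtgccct
Tef, chr15:81802509-81802588, plus strand: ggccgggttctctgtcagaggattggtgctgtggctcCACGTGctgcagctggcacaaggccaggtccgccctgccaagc
Per3, chr4:151044780-151044859, minus strand: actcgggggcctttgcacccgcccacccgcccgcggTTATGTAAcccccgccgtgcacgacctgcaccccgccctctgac
Nfil3, chr13:52981040-52981119, minus strand: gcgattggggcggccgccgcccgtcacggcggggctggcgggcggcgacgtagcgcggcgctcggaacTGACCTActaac
Ciart holds the E-box once more farther out, 116 bases before the start, Per3 a second D-box 205 bases before it, and Tef an E-box at another of its starts. Cry1 and Ciart thus share the E-box letters while the RNA of Cry1 rose 6.35-fold and that of Ciart fell 5.19-fold.

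Among genes outside the clock with a mean of at least 50 normalized counts in the higher group and no overlap between the groups, the largest rise was in Lingo4, a leucine-rich repeat membrane protein, 4.03-fold, at 112 to 188 in the active and 18.4 to 48.7 in the inactive libraries (log2 fold 2.05 ± 0.22, adjusted p = 2.25e-07). Col13a1, a collagen that spans the membrane, ran 61.4 to 84.6 in the active and 16.3 to 33.1 in the inactive libraries (log2 fold 1.61 ± 0.20, adjusted p = 3.73e-06). Both sets of 6 libraries lay apart. Zbtb16, a zinc finger repressor that glucocorticoids induce, rose 2.98-fold (log2 fold 1.52 ± 0.40, adjusted p = 0.0135). Adamtsl5, a secreted matrix protein, showed a 2.64-fold rise (log2 fold 1.45 ± 0.19, adjusted p = 5.52e-06).

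Ppard, the nuclear receptor PPAR delta that senses fatty acids, ran from 631 through a median of 1135 to 1256 in the active libraries and from 274 through 389 to 440.3 in the inactive ones, 2.65-fold higher (log2 fold 1.37 ± 0.20, adjusted p = 9.60e-05). Insc, an adaptor of spindle orientation, rose by a like amount at low counts, 41.1 to 106 in the active and 20.4 to 40.9 in the inactive libraries (log2 fold 1.31 ± 0.21, adjusted p = 9.23e-05). Nat8f5, of the N-acetyltransferase family that makes mercapturic acids, was at 2219 to 3578 in the active and 868 to 1707 in the inactive libraries, 2.39-fold higher (adjusted p = 0.0105). Its relative Nat8 rose too (log2 fold 0.61 ± 0.12, adjusted p = 0.00126). Fbxl22, an F-box protein, rose 2.24-fold (log2 fold 1.18 ± 0.20, adjusted p = 1.84e-04).

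By the same criteria the largest fall outside the clock was that of Cyp24a1 (ENSMUSG00000038567), whose enzyme breaks down vitamin D hormone. It ran from 887 through a median of 1619 to 1848 in the active libraries and from 5309 through 8543 to 12904 in the inactive ones (log2 fold -2.50 ± 0.27, adjusted p = 4.42e-06). All active libraries were thus below all inactive ones, and the inactive libraries themselves spread widely. Of the other vitamin D genes, the receptor Vdr fell slightly (log2 fold -0.26 ± 0.08, adjusted p = 0.0294), a call lost without active replicates 25, 26, 28 and 30 or inactive replicates 33, 34 and 35. Gc, the vitamin D binding protein (log2 fold -0.43 ± 0.08, adjusted p = 0.00104), and Dab2, an adaptor of the uptake receptor megalin (log2 fold -0.24 ± 0.05, adjusted p = 7.97e-04), fell too. Cyp2r1, a 25-hydroxylase, rose from 51.5 to 76.8 normalized counts (log2 fold 0.58 ± 0.19, adjusted p = 0.032), a call lost without active replicates 25, 26 and 28 or inactive replicates 32, 34 and 35. Over the whole vitamin D list, of the 11 tested genes, 2 were higher, 4 lower and 5 did not pass. The shares over all tested genes were 8.43% and 6.95%. The count of rises was 0 to 1 without any 1 of active replicates 25, 26 and 28 and inactive replicates 32, 33, 34 and 35, and the counts were 0 higher and 4 lower without both active replicates 26 and 29.

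The other large falls were in genes with low counts. Nek5, a kinase of centrosomes and cilia, was at 5.46 to 34.1 in the active and 46.7 to 64.7 in the inactive libraries (log2 fold -1.66 ± 0.30, adjusted p = 3.96e-04), and the olfactory receptor gene Olfr1392 at 11.1 to 27.996 in the active and 30.2 to 90.8 in the inactive libraries (log2 fold -1.54 ± 0.34, adjusted p = 0.00266). Gas2l3, a cytoskeletal linker of dividing cells, fell 2.61-fold (log2 fold -1.38 ± 0.22, adjusted p = 7.99e-05). Gprin3, which binds G proteins (log2 fold -1.14 ± 0.19, adjusted p = 1.07e-04), and Cep72, a centrosome protein (log2 fold -1.14 ± 0.15, adjusted p = 4.68e-06), fell by a like amount.

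Among called genes whose groups do not overlap, the largest gains in normalized counts were in genes with high counts. Ndrg1, a stress and differentiation gene, ran from 48982 through a median of 63031 to 68706 in the active libraries and from 28630.1 through 31757 to 40058 in the inactive ones, a mean gain of 29313 normalized counts (log2 fold 0.92 ± 0.11, adjusted p = 5.16e-06). Miox, the first enzyme of inositol breakdown and a proximal tubule gene, rose 1.32-fold, at 48261 to 61995 in the active and 38410.4 to 46561 in the inactive libraries (log2 fold 0.40 ± 0.06, adjusted p = 7.74e-05), and Ces1d, a carboxylesterase, 1.54-fold (log2 fold 0.63 ± 0.12, adjusted p = 8.91e-04). 4833439L19Rik, a gene known by a model identifier, rose 1.23-fold (log2 fold 0.30 ± 0.05, adjusted p = 9.96e-05). Among called genes without overlap the largest fall in counts was in Selenop, which carries selenium in plasma. It was at 70176 ± 4293 and 83387 ± 6205 (log2 fold -0.25 ± 0.05, adjusted p = 0.00239). Tmem174, a proximal tubule membrane protein, fell as well, at 12825 to 16560.3 in the active and 17278 to 19896 in the inactive libraries (log2 fold -0.32 ± 0.07, adjusted p = 0.0024).

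**Figure D3:**
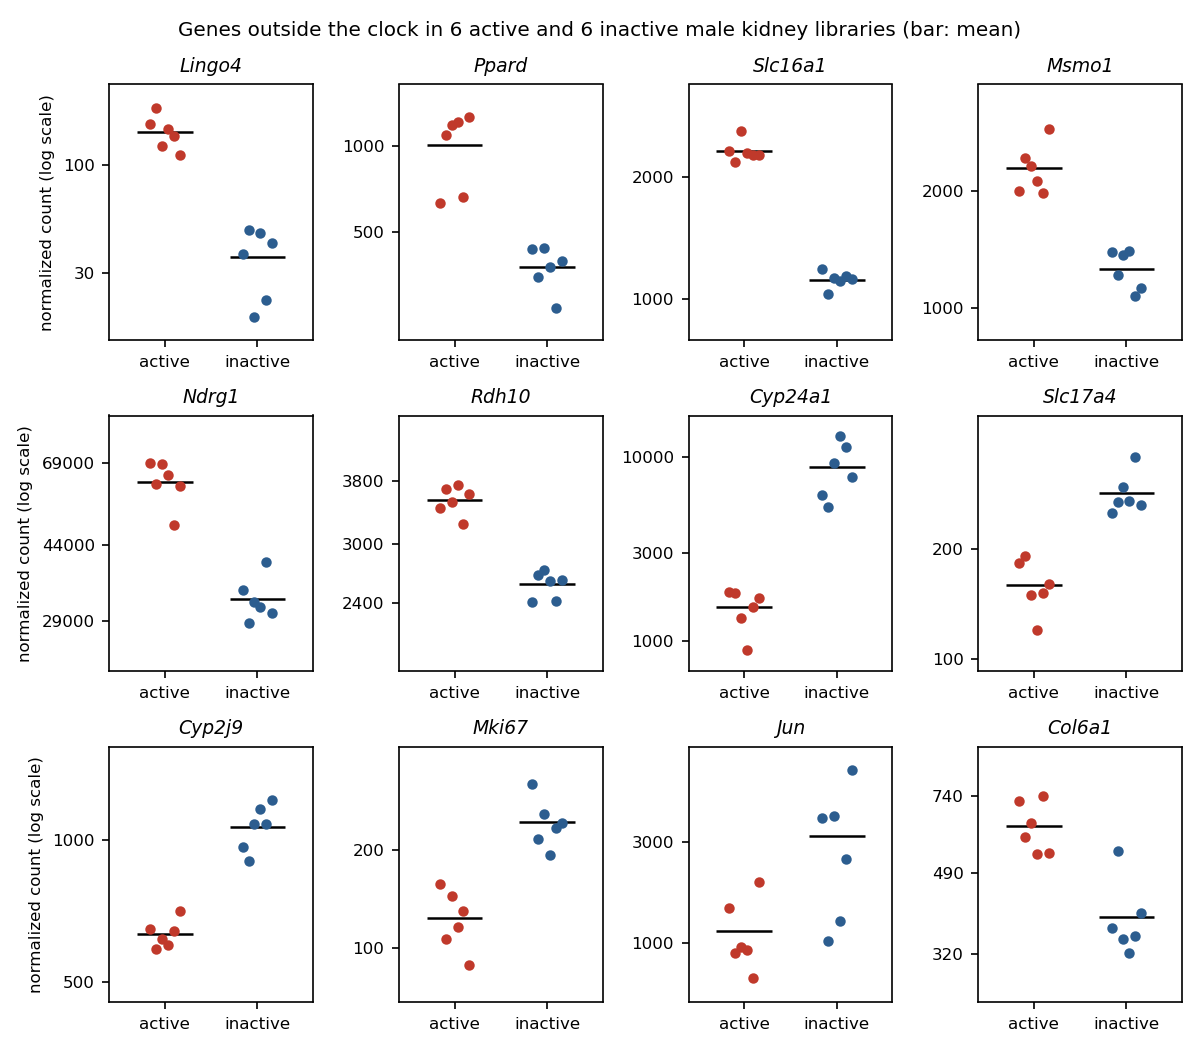
Normalized counts (y axis, log scale) of 12 genes outside the clock in each of the 12 male libraries, with a bar at the mean of each group. Lingo4, Ppard, Slc16a1, Msmo1, Ndrg1 and Rdh10 are higher and Cyp24a1, Slc17a4, Cyp2j9 and Mki67 lower in all active libraries, while the groups of Jun and Col6a1 overlap.

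Genes of lactate, sugar and sterol handling moved singly or as a small group. Slc16a1, which carries lactate and other monocarboxylates across the membrane, ran from 2185 through a median of 2281 to 2605 in the active libraries and from 1030.2 through 1126 to 1185 in the inactive ones, 2.07-fold higher (log2 fold 1.05 ± 0.08, adjusted p = 5.13e-10), with the groups far apart. G6pc, the last step of glucose release, rose with overlapping groups, at 13882 to 23899 in the active and 6943 to 14566 in the inactive libraries (log2 fold 0.75 ± 0.17, adjusted p = 0.00688). Irs2, an insulin receptor substrate, fell from 1125 to 506 (log2 fold -1.10 ± 0.31, adjusted p = 0.0219), a call lost without active replicate 26 or inactive replicates 33 and 34. Over the list of gluconeogenesis and ammonia production, of the 19 tested genes, 3 were higher, 1 lower and 15 did not pass, against 8.43% and 6.95% of all tested genes. Rises numbered 5 to 7 without any 1 of active replicates 25 and 28, and the counts were 2 higher and 1 lower without both active replicates 26 and 29.

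Of the glucose transporters, Slc2a1 of the basolateral membrane rose (log2 fold 0.28 ± 0.06, adjusted p = 0.00461). Slc2a2, the exit path for glucose in the early proximal tubule, fell from 7177 to 5144 (log2 fold -0.48 ± 0.06, adjusted p = 4.49e-06). The fructose transporter Slc2a5 fell (log2 fold -0.47 ± 0.11, adjusted p = 0.00441). Slc5a12, a sodium-coupled lactate carrier of the brush border, fell slightly (log2 fold -0.36 ± 0.11, adjusted p = 0.0306), a call lost without active replicates 26, 29 and 30 or inactive replicates 35 and 36.

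Genes of cholesterol synthesis and its control by SREBP were higher in part. Of the 35 tested genes, 13 were higher, 1 lower and 21 did not pass, with a median of 0.19, and 11 of the rises kept their call in each of the 12 fits with 1 male library left out. 11 were higher without both active replicates 26 and 29. Msmo1, a sterol oxidase, ran from 1973 through a median of 2216 to 2879 in the active libraries and from 1077 through 1293 to 1403 in the inactive ones (log2 fold 0.85 ± 0.12, adjusted p = 6.50e-05). Srebf1, the gene of the lipid regulator SREBP1, rose 1.69-fold (log2 fold 0.77 ± 0.11, adjusted p = 4.61e-05). Mvd (log2 fold 0.46 ± 0.08, adjusted p = 1.69e-04) and Acat2 (log2 fold 0.39 ± 0.06, adjusted p = 5.62e-05) of the early pathway, Lss, which closes the sterol rings (log2 fold 0.47 ± 0.09, adjusted p = 5.22e-04), and the fatty acid desaturase Scd2 (log2 fold 0.75 ± 0.13, adjusted p = 4.94e-04) rose without overlap of the groups.

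Fatty acid oxidation did not move as a group. Of the 45 tested genes, 2 were higher, 3 lower and 40 did not pass, against 8.43% and 6.95% of all tested genes. The median was 0.01, and -0.02 by the upper quartile. The count of rises was 0 to 1 without any 1 of active replicates 26 and 29 and inactive replicates 32 and 36, and the counts were 0 higher and 3 lower without both active replicates 26 and 29. Ppara, the receptor that drives this pathway, was at 455 to 709.5 in the active and 714 to 1112 in the inactive libraries (log2 fold -0.57 ± 0.11, adjusted p = 8.43e-04). Cpt1a, the gate for fatty acids into mitochondria, was at 13163 to 15404 in the active and 16294 to 20263 in the inactive libraries (log2 fold -0.34 ± 0.06, adjusted p = 4.81e-04). Both thus lay lower in all 6 active libraries. Aldh3a2, a fatty aldehyde dehydrogenase, fell (log2 fold -0.18 ± 0.05, adjusted p = 0.0133).

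Chaperones of the endoplasmic reticulum were higher in part. Of the 25 tested genes, 13 were higher, 0 lower and 12 did not pass, with a median of 0.25. Among them the co-chaperone Sdf2l1 rose 2.23-fold, at 206 to 741 in the active and 142 to 228 in the inactive libraries (log2 fold 1.04 ± 0.23, adjusted p = 0.00411). Hspa5, the main chaperone there, rose 1.72-fold, at 28727 to 49100.5 in the active and 18771 to 24754 in the inactive libraries (log2 fold 0.76 ± 0.16, adjusted p = 0.00397). Hyou1, its exchange factor, was at 3973 to 6192 in the active and 2415 to 3039.6 in the inactive libraries (log2 fold 0.77 ± 0.12, adjusted p = 1.28e-04). Creld2, a secreted helper, was at 1163 to 2613 in the active and 698 to 1092 in the inactive libraries (log2 fold 1.05 ± 0.19, adjusted p = 0.00104). Dnajb11 (log2 fold 0.38 ± 0.10, adjusted p = 0.0088) and Sel1l, part of the machinery that removes misfolded proteins (log2 fold 0.24 ± 0.06, adjusted p = 0.00607), rose by less. The count was 9 to 14 with any 1 male library left out, and 6 without both active replicates 26 and 29.

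In the cytosol heat shock chaperones and their helpers were higher in part. Of the 22 tested genes, 8 were higher, 0 lower and 14 did not pass, all 22 with a positive log2 fold and with a median of 0.47. The 2 groups overlapped in each of them. Hspa8, the abundant constitutive chaperone, ran from 90393 through a median of 107764 to 135299.6 in the active libraries and from 56588 through 70082 to 98801 in the inactive ones (log2 fold 0.56 ± 0.15, adjusted p = 0.0166). Hsp90ab1 was at 49001 to 78455 in the active and 37159 to 55479 in the inactive libraries (log2 fold 0.38 ± 0.11, adjusted p = 0.0161). The Hsp90 co-chaperones Stip1 (log2 fold 0.61 ± 0.12, adjusted p = 0.00125), Ahsa1 (log2 fold 0.57 ± 0.11, adjusted p = 0.00178), Chordc1 (log2 fold 0.60 ± 0.15, adjusted p = 0.0116) and Fkbp4 (log2 fold 0.46 ± 0.09, adjusted p = 7.41e-04) rose too. The count was 6 to 11 with any 1 male library left out, and 4 without both active replicates 26 and 29. Cirbp, an RNA-binding protein that mild cold induces, fell, at 698 to 957 in the active and 968 to 1676 in the inactive libraries (log2 fold -0.50 ± 0.12, adjusted p = 0.00644). Rbm3, the other of the 2 tested genes of this kind, did not pass, and its log2 fold was positive.

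Genes induced by glucocorticoids did not move as a group. Of the 19 tested genes, 4 were higher, 4 lower and 11 did not pass, against 8.43% and 6.95% of all tested genes. The median was -0.08. The count of falls was 1 to 2 without any 1 of active replicates 27 and 29 and inactive replicates 33 and 36, and the counts were 4 higher and 1 lower without both active replicates 26 and 29. Tsc22d3, the glucocorticoid-induced leucine zipper, ran from 3249 through a median of 3389.7 to 5030.4 in the active libraries and from 1107 through 1594 to 2296 in the inactive ones (log2 fold 1.18 ± 0.22, adjusted p = 0.00104). Fkbp5, a co-chaperone of the receptor, was at 4340.1 to 5669 in the active and 1895 to 4234 in the inactive libraries (log2 fold 0.68 ± 0.17, adjusted p = 0.0109). Klf9, a zinc finger factor under the control of the same receptor, fell (log2 fold -0.35 ± 0.10, adjusted p = 0.0151), as did the metal-binding Mt1 (log2 fold -0.63 ± 0.18, adjusted p = 0.0239, lost without active replicate 27 or inactive replicate 35). Igfbp1, a binding protein of insulin-like growth factors that fasting raises, ran from 19.9 through a median of 38.3 to 56.8 in the active libraries and from 35.1 through 211 to 316 in the inactive ones (log2 fold -2.15 ± 0.42, adjusted p = 0.0017). Its highest active library exceeded its lowest inactive one.

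Few immediate early genes, which any recent stimulus and the handling of tissue can induce, passed. Of the 24 tested genes, 1 was higher, 3 lower and 20 did not pass, against 8.43% and 6.95% of all tested genes. The median was -0.72, and none of the 4 calls held in all 12 fits with 1 male library left out. Jun, a subunit of AP-1, ran from 676 through a median of 939 to 1939.7 in the active libraries and from 1022 through 3216 to 6566 in the inactive ones (log2 fold -1.30 ± 0.37, adjusted p = 0.0211), and the call was lost without active replicate 29 or inactive replicates 33 and 36. The phosphatase gene Dusp1 was at 808 to 2004 in the active and 1481 to 6057 in the inactive libraries (log2 fold -1.17 ± 0.34, adjusted p = 0.0244), lost without active replicates 27 and 29 or inactive replicates 33 and 36. Zfp36, which speeds RNA decay (log2 fold -0.94 ± 0.28, adjusted p = 0.026), lost its call without active replicates 26, 27 and 29 or inactive replicates 33, 35 and 36, and Myc, a transcription factor of cell growth, which rose (log2 fold 0.80 ± 0.25, adjusted p = 0.0321), without active replicates 26, 28, 29 and 30 or inactive replicates 33, 35 and 36. Without both active replicates 26 and 29 none passed. The chemokine Cxcl1 (19.6 to 135 in the active and 66.3 to 464 in the inactive libraries, log2 fold -1.46 ± 0.39, adjusted p = 0.0141) and the small G protein Rasd1 (67.0 to 119 in the active and 90.8 to 369.8 in the inactive libraries, log2 fold -1.23 ± 0.30, adjusted p = 0.00776) fell and kept their calls in all 12 such fits.

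Salt transport changed gene by gene. Genes are set out here by a segment they are known from, since RNA of whole kidney does not place a change. In the proximal tubule the sodium-proton exchanger Slc9a3 ran 3065 to 3563 in the active and 4131 to 5496 in the inactive libraries (log2 fold -0.54 ± 0.07, adjusted p = 3.37e-06). The anion exchanger Slc26a6 fell (log2 fold -0.43 ± 0.10, adjusted p = 0.00503). The scaffold Slc9a3r2, which docks the exchanger, rose 1.52-fold (log2 fold 0.62 ± 0.09, adjusted p = 1.95e-05). The groups of Slc9a3 and of Slc9a3r2 did not overlap. Kcnj1, which recycles potassium in the thick ascending limb, rose (log2 fold 0.18 ± 0.05, adjusted p = 0.0225, lost without inactive replicates 35 and 36). The potassium channel gene Kcnj16 fell (log2 fold -0.20 ± 0.06, adjusted p = 0.0172, lost without inactive replicate 34). In the distal convoluted tubule the kinase gene Wnk4 rose (log2 fold 0.25 ± 0.07, adjusted p = 0.0116).

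In the collecting system Scnn1a, the alpha subunit of the epithelial sodium channel, was at 3605 to 4006 in the active and 2385 to 3227 in the inactive libraries (log2 fold 0.41 ± 0.06, adjusted p = 5.04e-05). Hsd11b2, which shields the mineralocorticoid receptor from corticosterone, was at 2970.4 to 3664 in the active and 2262 to 2803 in the inactive libraries (log2 fold 0.37 ± 0.05, adjusted p = 2.25e-05). The receptor itself, Nr3c2, was lower, at 525 to 633 in the active and 626 to 772 in the inactive libraries (log2 fold -0.32 ± 0.06, adjusted p = 6.80e-04), as was the kinase Sgk3, at 759.9 to 1031 in the active and 1039 to 1346 in the inactive libraries (log2 fold -0.31 ± 0.07, adjusted p = 0.00207). Over the channel, SGK and aldosterone genes, of the 16 tested genes, 5 were higher, 2 lower and 9 did not pass. Over all tested genes the shares were 8.43% and 6.95%. Rises numbered 3 without any 1 of active replicates 25, 27, 29 and 30 and inactive replicates 34, 35 and 36, and the counts were 5 higher and 2 lower without both active replicates 26 and 29 and 3 higher and 4 lower by the upper quartile. Over the distal convoluted tubule list, of the 15 tested genes, 5 were higher, 1 lower and 9 did not pass, against the same shares. The count of rises was 2 to 3 without any 1 of active replicates 26, 29 and 30 and inactive replicates 35 and 36, and none of the rises passed without both active replicates 26 and 29. Beside these values stands the summed level of 9 markers of connecting tubule and principal cells, which was 36030.3 to 38646 in the active and 27302 to 34144 in the inactive libraries, without overlap. Of the 9 markers 3 were higher and 0 lower, against 8.43% and 6.95% of all tested genes, and 2 were higher without both active replicates 26 and 29. By the upper quartile 1 was higher and 1 lower, and by equal totals 1 was higher and 0 lower. Rises numbered 1 without any 1 of active replicates 27, 29 and 30 and inactive replicates 35 and 36. Hsd11b2 is 1 of the 9, so the sum is not independent of the values above. The sodium channel subunits Scnn1b and Scnn1g are among the 9 as well. In bulk RNA more cells of a type and more RNA per cell cannot be told apart, and the part of this in the results was not tested.

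The potassium channels Kcnt1, gated by sodium, and Kcnma1, of flow-driven secretion, fell: Kcnt1 was at 394 to 534 in the active and 649 to 958 in the inactive libraries (log2 fold -0.78 ± 0.10, adjusted p = 1.12e-05) and Kcnma1 at 35.4 to 82.0 in the active and 71.3 to 152 in the inactive libraries (log2 fold -0.82 ± 0.22, adjusted p = 0.0101). Kcnq1 rose (log2 fold 0.27 ± 0.08, adjusted p = 0.0153). Over the potassium channels, of the 13 tested genes, 2 were higher, 3 lower and 8 did not pass, against 8.43% and 6.95% of all tested genes. Rises numbered 1 without any 1 of inactive replicates 35 and 36, and the counts were 0 higher and 3 lower without both active replicates 26 and 29.

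Genes of water and urea were mostly higher where they passed. Avpr1a, a vasopressin receptor, ran from 299 through a median of 384 to 476 in the active libraries and from 172 through 219 to 250.1 in the inactive ones (log2 fold 0.83 ± 0.11, adjusted p = 6.75e-06). Slc14a2, the urea transporter of the inner medulla, rose with overlap, at 1686 to 2474 in the active and 893 to 2067 in the inactive libraries (log2 fold 0.62 ± 0.14, adjusted p = 0.00604). The water channel Aqp1 rose slightly (log2 fold 0.23 ± 0.06, adjusted p = 0.00682). Over the water and urea list, of the 20 tested genes, 4 were higher, 1 lower and 15 did not pass, against 8.43% and 6.95% of all tested genes. The counts were 3 higher and 1 lower without both active replicates 26 and 29. Of the ammonia channels of acid excretion, Rhbg rose, at 109 to 187 in the active and 86.6 to 103 in the inactive libraries (log2 fold 0.58 ± 0.14, adjusted p = 0.00729). Rhcg rose slightly (log2 fold 0.24 ± 0.07, adjusted p = 0.0197, lost without active replicate 26 or inactive replicates 35 and 36). Over the whole list of acid genes, of the 18 tested genes, 3 were higher, 2 lower and 13 did not pass, against the same shares. Of the 18 genes 7 had a positive log2 fold, and the median was -0.06. The counts were 0 higher and 1 lower without both active replicates 26 and 29.

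Single calcium and magnesium genes of the distal nephron changed. Of the 14 tested genes, 4 were higher, 2 lower and 8 did not pass, with a median of -0.02, against 8.43% and 6.95% of all tested genes. The count of rises was 2 without any 1 of inactive replicates 35 and 36, and the counts were 2 higher and 1 lower without both active replicates 26 and 29. Slc8a1, the sodium-calcium exchanger, ran 6729 to 8124 in the active and 4669 to 6637 in the inactive libraries (log2 fold 0.45 ± 0.08, adjusted p = 6.87e-04). The calcium pump Atp2b4 rose (log2 fold 0.33 ± 0.08, adjusted p = 0.00461). Of the magnesium channels, Trpm6 rose (log2 fold 0.50 ± 0.14, adjusted p = 0.0215, lost without inactive replicates 33, 35 and 36) and the related Trpm7 fell (log2 fold -0.32 ± 0.05, adjusted p = 1.09e-04). Among receptors for FGF23, the phosphate hormone, Fgfr4 rose, at 1408 to 1673 in the active and 1092 to 1227 in the inactive libraries (log2 fold 0.37 ± 0.07, adjusted p = 3.10e-04), and Fgfr1 fell, at 1310.4 to 1422 in the active and 1485 to 1651 in the inactive libraries (log2 fold -0.20 ± 0.04, adjusted p = 0.00297). Fam20c, a secreted kinase that acts on FGF23, rose (log2 fold 0.29 ± 0.06, adjusted p = 0.00233).

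Amino acid uptake was lower where it passed. Of the 28 tested genes, 0 were higher, 4 lower and 24 did not pass, against 8.43% and 6.95% of all tested genes, with a median of -0.09. Slc6a19, the main carrier of neutral amino acids in the brush border, ran from 4535 through a median of 5571 to 6488 in the active libraries and from 8868 through 10572 to 11550.1 in the inactive ones (log2 fold -0.88 ± 0.11, adjusted p = 1.36e-05). Slc7a9, the light chain of the cystine carrier (2453 to 2939 in the active and 3156 to 3674 in the inactive libraries, log2 fold -0.37 ± 0.06, adjusted p = 5.87e-05), fell. Slc7a7, of basolateral exit (2041 to 2680.5 in the active and 2727 to 3237 in the inactive libraries, log2 fold -0.38 ± 0.07, adjusted p = 4.68e-04), fell too. The groups lay apart in all 3. Slc6a6, the taurine carrier, fell slightly (log2 fold -0.23 ± 0.07, adjusted p = 0.0226, lost without active replicate 30 or inactive replicate 35).

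Single carriers of organic ions and drugs changed. Slc17a4, a urate and anion carrier, ran 120.0 to 191 in the active and 252 to 358 in the inactive libraries (log2 fold -0.84 ± 0.13, adjusted p = 4.76e-05), and the sulfate carrier Slc13a1 fell, at 9207 to 10409 in the active and 12206 to 14414 in the inactive libraries (log2 fold -0.39 ± 0.11, adjusted p = 0.0172). Slco2b1, an organic anion carrier, rose (log2 fold 0.71 ± 0.13, adjusted p = 7.47e-04), as did the dicarboxylate carrier Slc13a3 (log2 fold 0.43 ± 0.11, adjusted p = 0.0109). Over the organic ion carriers, of the 33 tested genes, 4 were higher, 2 lower and 27 did not pass, against 8.43% and 6.95% of all tested genes. Rises numbered 2 to 7 without any 1 of active replicates 25, 26 and 29, and the counts were 1 higher and 1 lower without both active replicates 26 and 29. Abcb1a, the drug efflux pump, fell, at 78.5 to 141 in the active and 134 to 329 in the inactive libraries (log2 fold -0.75 ± 0.15, adjusted p = 0.00112).

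Conjugation enzymes were higher in part. Of the 35 tested genes, 7 were higher, 2 lower and 26 did not pass, against 8.43% and 6.95% of all tested genes. The count of falls was 1 without any 1 of active replicate 26 and inactive replicate 36, and the counts were 5 higher and 1 lower without both active replicates 26 and 29. Gsta3 (log2 fold 0.42 ± 0.08, adjusted p = 9.16e-04), Gstt1 (log2 fold 0.32 ± 0.06, adjusted p = 7.85e-04) and Gstp1 (log2 fold 0.30 ± 0.06, adjusted p = 0.00132), glutathione transferases, rose without overlap, while Gstt2 fell (log2 fold -0.33 ± 0.07, adjusted p = 0.00199). Sult1a1, a sulfotransferase, rose 1.48-fold (log2 fold 0.58 ± 0.10, adjusted p = 1.76e-04). Cyp2j9, an epoxygenase of fatty acids, ran from 587 through a median of 629 to 707 in the active libraries and from 903 through 1081 to 1216 in the inactive ones, 1.69-fold lower (log2 fold -0.75 ± 0.08, adjusted p = 1.50e-07). Msrb1, a selenoprotein that repairs oxidized methionine, rose, at 5438 to 8560.3 in the active and 3932 to 5430.5 in the inactive libraries (log2 fold 0.48 ± 0.08, adjusted p = 3.62e-04). Rdh10, which makes retinal for retinoic acid, ran 3236 to 3750.4 in the active and 2407 to 2719 in the inactive libraries (log2 fold 0.46 ± 0.06, adjusted p = 3.86e-06).

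Single regulators of nephron identity moved by modest amounts. Of the 30 tested genes, 3 were higher, 9 lower and 18 did not pass, against 8.43% and 6.95% of all tested genes. The count of rises was 5 without inactive replicate 32 and that of falls 5 without active replicate 26, and the counts were 3 higher and 4 lower without both active replicates 26 and 29. Tfap2b of the distal nephron, at 1348 to 1619.7 in the active and 1752 to 2179 in the inactive libraries, fell (log2 fold -0.49 ± 0.07, adjusted p = 1.89e-05), as did Maf (log2 fold -0.35 ± 0.08, adjusted p = 0.00354). Hnf4a of the proximal tubule (log2 fold 0.24 ± 0.05, adjusted p = 0.00325) and Pax8 (log2 fold 0.35 ± 0.08, adjusted p = 0.00237) rose with overlapping groups. The tight junction genes Ocln (log2 fold -0.37 ± 0.07, adjusted p = 8.09e-04) and Cldn8 (log2 fold -0.27 ± 0.07, adjusted p = 0.0146) fell.

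Single genes of autophagy, mitochondrial carriers and iron uptake moved. In the autophagy list, of the 28 tested genes, 3 were higher, 3 lower and 22 did not pass, against 8.43% and 6.95% of all tested genes. Rises numbered 1 without inactive replicate 35, and the counts were 1 higher and 3 lower without both active replicates 26 and 29. Wipi1, which binds the forming autophagosome, fell, at 759 to 1065 in the active and 1163 to 1675 in the inactive libraries (log2 fold -0.69 ± 0.09, adjusted p = 1.17e-05). Atg14 (log2 fold -0.37 ± 0.08, adjusted p = 0.00365) fell, as did Gabarapl1, which joins the autophagosome membrane (log2 fold -0.29 ± 0.05, adjusted p = 5.78e-04). Tfeb, the gene of a regulator of lysosomes, rose (log2 fold 0.41 ± 0.08, adjusted p = 0.00155). Of the mitochondrial carriers Slc25a36, of pyrimidine nucleotides, fell, at 3619.8 to 4450.3 in the active and 5287 to 6229 in the inactive libraries (log2 fold -0.47 ± 0.05, adjusted p = 4.84e-07). Slc25a45 rose, at 1426 to 1961 in the active and 983 to 1275 in the inactive libraries (log2 fold 0.56 ± 0.07, adjusted p = 7.21e-06). Tfrc, the transferrin receptor, rose 1.51-fold (log2 fold 0.60 ± 0.11, adjusted p = 7.74e-04). Of interferon genes Rsad2 rose, at 1129 to 1477 in the active and 699.8 to 1075 in the inactive libraries (log2 fold 0.64 ± 0.10, adjusted p = 1.03e-04). Ifih1 fell, at 420.4 to 614 in the active and 672 to 814 in the inactive libraries (log2 fold -0.42 ± 0.08, adjusted p = 7.03e-04). These are the only calls among 26, against the same shares of all tested genes, 8.43% higher and 6.95% lower.

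Many genes of ribosomes and of the respiratory chain were slightly higher. For cytosolic ribosomal proteins, of the 82 tested genes, 41 were higher, 0 lower and 41 did not pass, with a median of 0.18. For nuclear genes of the respiratory chain, of the 77 tested genes, 36 were higher, 0 lower and 41 did not pass, with a median of 0.18. Rpl41 was at 7332 to 12078 in the active and 6476 to 7553 in the inactive libraries (log2 fold 0.32 ± 0.08, adjusted p = 0.00483), and Atp5g1, of the ATP synthase ring, at 4007 to 6294 in the active and 3478 to 4619 in the inactive libraries (log2 fold 0.35 ± 0.08, adjusted p = 0.0036). Rpl8 (log2 fold 0.26 ± 0.06, adjusted p = 0.00626) and Cyc1, of complex III (log2 fold 0.28 ± 0.06, adjusted p = 0.00211), rose by a like amount. In only 1 gene of each list, Rpl7l1 (log2 fold 0.24 ± 0.05, adjusted p = 0.00332) and Ndufab1 (log2 fold 0.25 ± 0.06, adjusted p = 0.00297), the groups did not overlap. Over all tested genes the share without overlap was 4.29%. Mitochondrial ribosomal proteins counted 12 higher and 0 lower of 77, against 8.43% and 6.95% of all tested genes.

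These counts moved with the libraries included. Without both active replicates 26 and 29, 3 of the ribosomal proteins and 4 of the respiratory genes were higher, with medians of 0.08 and 0.08, when all tested genes gave 696 higher. With single libraries left out, the ribosomal count was 13 to 65 without any 1 of active replicates 25, 26, 29 and 30 and inactive replicates 35 and 36, the respiratory count 20 to 62 without any 1 of active replicates 25, 26 and 29 and inactive replicates 35 and 36, and the mitochondrial ribosomal count 5 to 24 without any 1 of active replicates 25, 26, 29 and 30 and inactive replicates 33, 35 and 36. Most members are short, with a median of 1.10 kb in the ribosomal list and 1.14 kb in the respiratory one against 3.08 kb over all tested genes. Short genes outside these lists had a median above 0 as well, and few of them fell. Of transcripts up to 1 kb outside them, 114 of 1423 were higher and 25 lower, with a median of 0.10. Of those over 8 kb 39 of 843 were higher and 96 lower, with a median of -0.05. Over all tested genes 8.43% were higher and 6.95% lower. The rises of the short band were thus near the share of all genes, and its falls below it. In females the medians of the same bands, lists included, were -0.03 and 0.03. The part of transcript length in these results was not tested.

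The genes of the mitochondrial genome went the other way. Of the 13 tested genes, 0 were higher, 6 lower and 7 did not pass, with a median of -0.15. mt-Nd5, a subunit of complex I, was at 367514 to 485536 in the active and 470537 to 581216 in the inactive libraries (log2 fold -0.24 ± 0.06, adjusted p = 0.011). All mitochondrial transcripts together made up 12.1% to 15.2% of the normalized counts of the active and 14.6% to 16.6% of those of the inactive libraries, and the lowest share was again that of active replicate 26. The count was 3 without inactive replicate 34, and 1 without both active replicates 26 and 29.

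Some genes of dividing cells, all with low counts, were lower in the active period. Of the 38 tested genes, 1 was higher, 9 lower and 28 did not pass, against 8.43% and 6.95% of all tested genes. The median was -0.29. Mki67, a marker of proliferation, ran from 88.5 through a median of 123 to 157 in the active libraries and from 192 through 237 to 319 in the inactive ones (log2 fold -0.98 ± 0.17, adjusted p = 2.17e-04), and Cdc20, which opens anaphase, 17.6 to 38.7 in the active and 39.5 to 91.3 in the inactive libraries (log2 fold -1.13 ± 0.23, adjusted p = 0.00146). Ccnb1, the mitotic cyclin, was at 7.25 to 22.7 in the active and 27.3 to 47.4 in the inactive libraries (log2 fold -1.28 ± 0.32, adjusted p = 0.0076). In these 3 the groups lay apart. Aurkb (log2 fold -1.63 ± 0.48, adjusted p = 0.0202), Cenpf (log2 fold -0.84 ± 0.25, adjusted p = 0.0233) and Hmmr, a spindle protein (log2 fold -1.19 ± 0.36, adjusted p = 0.0252), fell. The call of Aurkb was lost without active replicates 26 and 29, that of Cenpf without active replicates 26 and 29 or inactive replicates 33, 34 and 36, and that of Hmmr without active replicates 26, 29 and 30 or inactive replicate 36. Mcm6, of the replication helicase, rose (log2 fold 0.32 ± 0.08, adjusted p = 0.00781). The count of falls was 3 to 5 without any 1 of active replicates 26 and 29 and inactive replicates 33 and 36, and 3 without both active replicates 26 and 29.

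Matrix genes were higher in part. Of the 23 tested genes, 10 were higher, 0 lower and 13 did not pass, with a median of 0.24, and the groups overlapped in all of them. Col6a1 ran from 545 through a median of 618 to 741 in the active libraries and from 321 through 359 to 553 in the inactive ones (log2 fold 0.71 ± 0.12, adjusted p = 1.84e-04), and its partners Col6a2 (log2 fold 0.65 ± 0.16, adjusted p = 0.00601) and Col6a3 (log2 fold 0.57 ± 0.14, adjusted p = 0.00886) and the proteoglycan gene Bgn (log2 fold 0.48 ± 0.11, adjusted p = 0.00467) rose. Eln, elastin, rose (log2 fold 0.50 ± 0.14, adjusted p = 0.014). The fibrillar Col1a2 rose by less (log2 fold 0.37 ± 0.10, adjusted p = 0.0135). The count was 6 without inactive replicate 36, and 6 without both active replicates 26 and 29. Markers of fibroblasts and vessels moved with these genes: the sum of 7 fibroblast markers was 5723 to 7199.9 in the active and 3906 to 6695 in the inactive libraries (3 of 7 higher, 0 lower), that of 9 endothelial markers 13830.4 to 15976 in the active and 9183 to 15647 in the inactive libraries (5 of 9 higher, 0 lower), and that of 6 red cell genes 5531 to 7256 in the active and 2308 to 5245 in the inactive libraries, without overlap and with none of 5 tested passing. The fibroblast markers include collagens, among them Col1a2, so their sum is partly made of matrix genes and is not independent of them. Over all tested genes 8.43% were higher and 6.95% lower. None of the markers in these sums is at 0 in all libraries. Their part in the result was not tested.

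**Figure D4:**
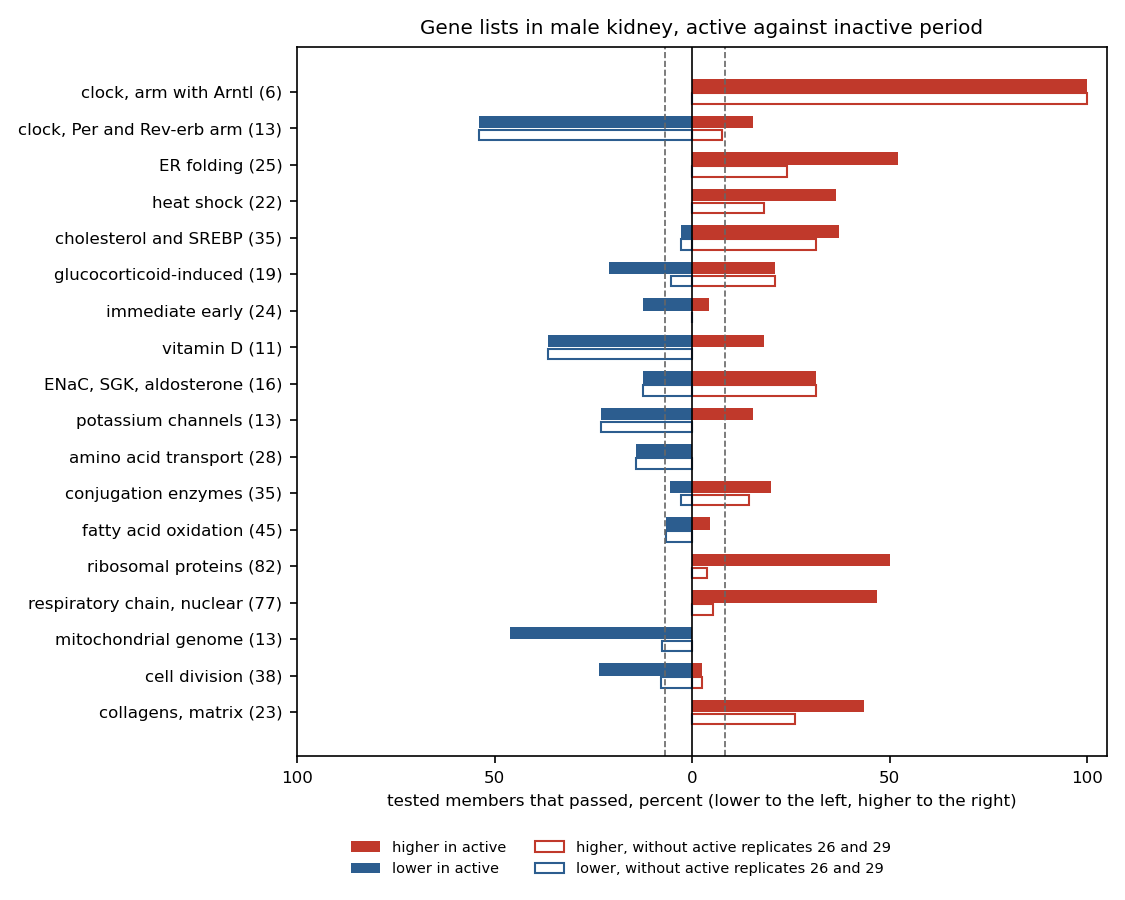
For 18 gene lists, the percentage of tested members that were higher (bars to the right) and lower (bars to the left) in active males at an adjusted p under 0.05, with the number tested beside each name. The dashed lines mark 8.43% and 6.95%, the same shares over all tested genes, and the open bars show the shares without active replicates 26 and 29, where ribosomal and respiratory genes shrink most.

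Several lists held little. None of the 20 renin-angiotensin and endothelin genes passed in limma, with an unadjusted p under 0.05 in 5 of them and none called by edgeR and DESeq2 either. Of 20 genes known to respond to androgen 1 was higher, Hsd17b11, a steroid dehydrogenase (log2 fold 0.27 ± 0.07, adjusted p = 0.0108), of 15 claudins and their partners 2 were lower, and of 19 Nrf2 targets 2 were higher. Beside 8.43% and 6.95% of all tested genes such counts are no result about these lists.

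The change in males was then set beside that in females, who share no library with them. In active females 1382 genes were higher (7.97%) and 1210 lower (6.98%). Of the genes higher in active males 465 were higher in active females, which is 31.8% of the male and 33.6% of the female list, and 344 were lower in both (28.6% and 28.4%). 35 genes were called in opposite directions. The difference between the 2 changes itself passed in 470 genes (2.71%), more positive in males in 245 and more negative in 225. With single libraries left out these counts ran from 139 to 465 and from 133 to 315, with changes of over 1.5 times without active male replicates 25 and 29, inactive male replicate 33, active female replicate 28 and inactive female replicates 32 and 33, and they were 73 and 80 without both active replicates 26 and 29.

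Several clock genes changed by less in males than in females. Dbp changed by -3.59 ± 0.22 in males and -4.91 ± 0.22 in females on the log2 scale (difference 1.32 ± 0.31, adjusted p = 0.0242), and Nr1d1 by -3.63 ± 0.17 and -4.58 ± 0.17 (difference 0.95 ± 0.25, adjusted p = 0.0379). Dbp reached 70.4 ± 15.2 and 2147 ± 429 normalized counts in active and inactive females. The Rev-erb beta gene Nr1d2 (difference 0.93 ± 0.15, adjusted p = 0.00384), Per3 (difference 0.82 ± 0.19, adjusted p = 0.0208) and Tef (difference 0.63 ± 0.13, adjusted p = 0.0128) fell by less, and Npas2 (difference -1.45 ± 0.30, adjusted p = 0.00998) rose by less. All of these kept their call in each of the 24 fits with 1 male or female library left out, other than Nr1d1, which kept it in 14. Active replicate 29 stood nearest to the inactive libraries in 6 of the 15 clock genes that passed in males, and without it the difference of Dbp was 1.10 (adjusted p in limma = 0.0148) and that of Nr1d1 0.89 (adjusted p = 0.0726). The difference of Nr1d1 was lost without a filter on low values (adjusted p in limma = 0.0652) and with a plain variance prior (adjusted p = 0.0587) as well. For Arntl (difference -0.82 ± 0.48, adjusted p = 0.368), Cry1 (difference -0.14 ± 0.37, adjusted p = 0.882), Ciart (difference 0.28 ± 0.35, adjusted p = 0.713) and Per2 (difference 0.41 ± 0.31, adjusted p = 0.496) a difference was not detectable. Slc16a1 (difference -0.69 ± 0.12, adjusted p = 0.00267) and Ndrg1 (difference -0.71 ± 0.15, adjusted p = 0.0146) rose, and Tmem174 (difference 0.52 ± 0.10, adjusted p = 0.00474) fell, by less in males too.

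Other genes changed in males by more than in females, or the other way. Cyp24a1 changed by -2.50 ± 0.27 in males and was at -0.42 ± 0.27 in females (difference -2.09 ± 0.38, adjusted p = 0.00713). Dusp1 (difference -2.31 ± 0.48, adjusted p = 0.0146), Jun (difference -2.002 ± 0.52, adjusted p = 0.0419), Zfp36 (difference -1.59 ± 0.39, adjusted p = 0.0324), Cxcl1 (difference -2.44 ± 0.56, adjusted p = 0.0198) and Rasd1 (difference -2.07 ± 0.42, adjusted p = 0.0119) were more negative in males, as were Mki67 (difference -1.32 ± 0.24, adjusted p = 0.00465), Cdc20 (difference -1.42 ± 0.33, adjusted p = 0.0179) and Selenop (difference -0.33 ± 0.08, adjusted p = 0.0171). Gdf15, a stress cytokine, did not pass in males (log2 fold -0.67 ± 0.33, adjusted p = 0.171), and its difference did (difference -2.05 ± 0.47, adjusted p = 0.0186). Miox (difference 0.42 ± 0.09, adjusted p = 0.00998), Msrb1 (difference 0.59 ± 0.12, adjusted p = 0.00982), Gstp1 (difference 0.47 ± 0.09, adjusted p = 0.00465) and Hsd11b2 (difference 0.30 ± 0.08, adjusted p = 0.0249) were more positive in males. So were Mogat2, of triglyceride synthesis (difference 1.54 ± 0.41, adjusted p = 0.0432), and Nrap, an actin-binding protein (difference 1.25 ± 0.34, adjusted p = 0.0422), neither of which passed in males alone (log2 fold 0.13 ± 0.29, adjusted p = 0.806, and log2 fold -0.64 ± 0.24, adjusted p = 0.0699). The differences of Jun, Zfp36, Mogat2 and Nrap kept their call in 6, 15, 8 and 7 of the 24 fits with 1 library left out, and those of the other genes named in this paragraph in all 24. Without both active replicates 26 and 29 the differences of Cxcl1, Gdf15, Hsd11b2, Jun, Mogat2, Ndrg1, Nr1d1, Nrap, Per3, Rasd1 and Zfp36 lost their calls, at adjusted p-values in limma of 0.052 to 0.135.

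**Figure D5:**
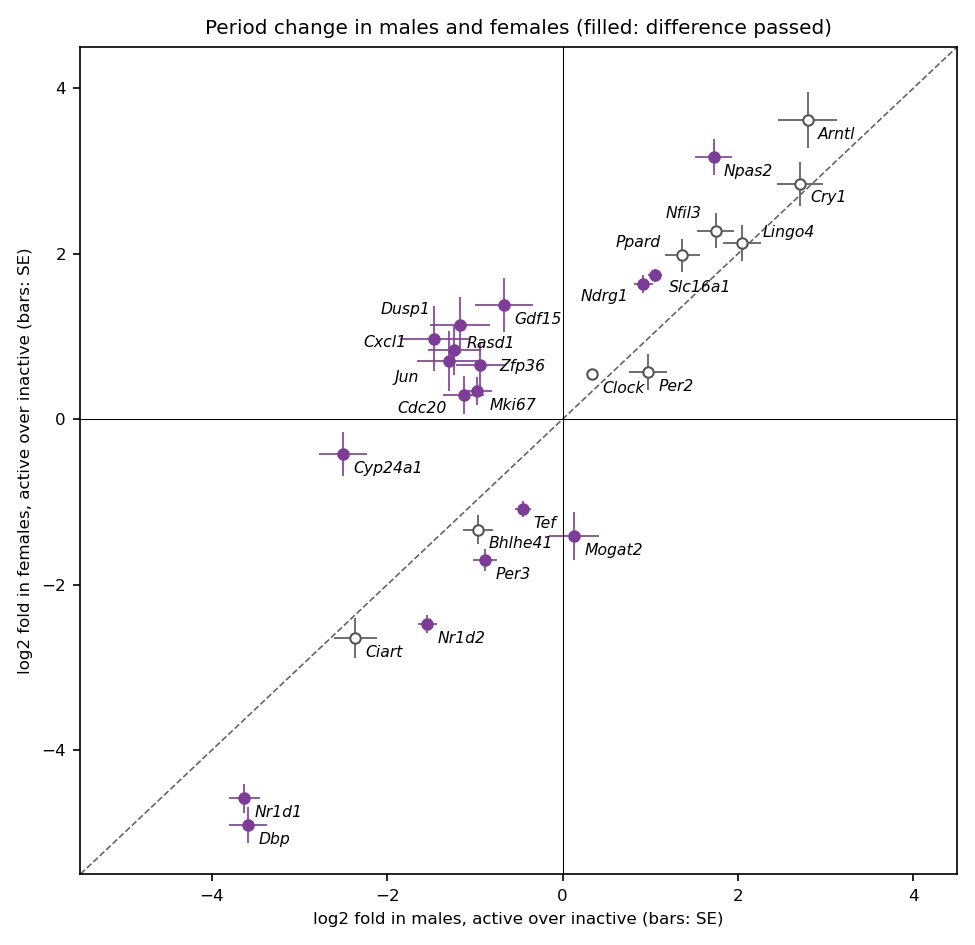
Log2 fold, active over inactive, in males (x axis) and in females (y axis) for 27 genes, with bars of 1 SE. The dashed line marks equal change, and filled points are genes whose difference between males and females passed, with Dbp, Nr1d1 and Nr1d2 below the line on the falling side and Cyp24a1, Dusp1 and Jun above it.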

How the data were processed

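The table deposited by the authors holds 1 normalized count per gene and library, a signal (unit signal) that is gene counts divided by a size factor. Per the submitters' processing notes, the build was GRCm39 and the tools were DESeq2 1.28.1, featureCounts, Subread 2.0.6 and Trim Galore 0.6.10, with no settings named. Per the labels' protocols, 100 ng of RNA extracted with a Zymo Direct-Zol kit was sequenced after poly A selection. Strandedness is not given, so reads of overlapping or antisense genes cannot be told apart, and near-identical gene copies are uncertain. Dividing by the smallest step of each library recovered whole reads (100% of the values of each library within 0.05 of a whole number), which gave the depth of each library (32037243 to 37223099 reads in males) and input for count tests. In active replicate 28 and 1 female library the step is close to 1, so there whole values say less about it.

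Of 56748 gene identifiers, 21416 were at 0 throughout. Genes with a mean of at least 10 over 24 libraries (17333, of which 342 had no symbol) were tested with limma 3.58.1 in R 4.3.3 on log2(value + 1), a scale that understates the change of low genes. The fit had 4 group means and 20 residual degrees of freedom, a trended and robust variance prior, and Benjamini-Hochberg adjustment over all 17333 genes, with calls at an adjusted p under 0.05. SE is that of the fit. Groups came from the labels. The code was tested on simulated data. Alternatives used other pseudocounts, filters, scalings, weights, priors and blocks, edgeR 4.0.16 and DESeq2 1.42.0 on recovered reads, and single libraries left out.

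Genes were named by rule. These are the 12 largest rises and falls among called genes whose groups do not overlap and whose higher group has a mean of 50 or more, and all clock genes. Added were up to 6 called members of each other list by smallest p (2 where none passed). So were the 6 largest rises and 6 largest falls in normalized counts among called genes whose groups do not overlap. The last were the 6 most positive and 6 most negative differences between the sexes. Members of these sets without a symbol of their own or of unknown function were not all printed, and a few others are not reported here. The comparison, the gene lists and the markers were chosen with earlier results of these data known.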

Additional observations from a re-analysis of the deposited data

Results flagged for a closer look

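Within each group of 6 male libraries, the highest and the lowest library of every named gene were compared with the others by Dixon's test at its 95% critical value, and 16 of 328 gene-group combinations had a library apart, where chance gives about 1 in 20 (5%). All values are normalized counts. In active replicate 25, G6pc stood at 13882, below the other 5 at 20307 to 23899. Klf9 stood at 8577, above the other 5 at 6917 to 7381. In the same library Zbtb16 stood at 414, above the other 5 at 116 to 219. In active replicate 26, Slco2b1 stood at 977, above the other 5 at 658 to 763. In active replicate 27, Slc16a1 stood at 2605, above the other 5 at 2185 to 2318. In active replicate 29, Arntl stood at 405, below the other 5 at 659 to 793. Dbp stood at 294, above the other 5 at 75.2 to 148. In the same library Irs2 stood at 1062, above the other 5 at 338 to 455. In inactive replicate 31, Hsd17b11 stood at 12376, below the other 5 at 15780.0 to 17712. Sdf2l1 stood at 228, above the other 5 at 142 to 173. In inactive replicate 32, Atg14 stood at 526, below the other 5 at 646 to 713. Col6a1 stood at 553, above the other 5 at 321 to 396. In the same library G6pc stood at 6943, below the other 5 at 11846 to 14566. Slc26a6 stood at 281, below the other 5 at 342 to 376. In the same library Sult1a1 stood at 691, above the other 5 at 428 to 515. In inactive replicate 36, Slc25a36 stood at 6229, above the other 5 at 5287 to 5621.

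In 33 named genes the period change of males differed from that of females by the interaction term in limma at an adjusted p under 0.05, given here as the male minus the female log2 fold. The difference was positive for Mogat2 (1.54), Dbp (1.32), Nrap (1.25), Nr1d1 (0.95), Nr1d2 (0.93), Per3 (0.82), Tef (0.63), Msrb1 (0.59), Col1a2 (0.56), Tmem174 (0.52), Gstp1 (0.47), Hsd17b11 (0.43), Miox (0.42), Cyc1 (0.35) and Hsd11b2 (0.30). It was negative for Cxcl1 (-2.44), Dusp1 (-2.31), Cyp24a1 (-2.09), Rasd1 (-2.07), Gdf15 (-2.05), Hmmr (-2.02), Jun (-2.002), Zfp36 (-1.59), Npas2 (-1.45), Cdc20 (-1.42), Cenpf (-1.35), Mki67 (-1.32), Ndrg1 (-0.71), Slc16a1 (-0.69), Slc6a6 (-0.36), Selenop (-0.33), Rdh10 (-0.29) and Trpm7 (-0.28). Among these, Cenpf had an SE of 0.358 and an adjusted p of 0.036, Col1a2 had an SE of 0.14 and an adjusted p of 0.0291, Cyc1 had an SE of 0.0849 and an adjusted p of 0.0223, Hmmr had an SE of 0.514 and an adjusted p of 0.0282, Hsd17b11 had an SE of 0.101 and an adjusted p of 0.0186, Rdh10 had an SE of 0.0825 and an adjusted p of 0.0477, Slc6a6 had an SE of 0.0966 and an adjusted p of 0.0358 and Trpm7 had an SE of 0.0744 and an adjusted p of 0.0343. These 8 differences lost their calls without both active replicates 26 and 29, at adjusted p-values in limma of 0.0666 to 0.143.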

How the results depend on the processing

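The counts in males (1461 higher, 1204 lower) stayed within 1.5 times in the alternatives tried, other than those given next. With only the 12 male libraries in the fit 998 genes were higher and 758 lower. With active replicates 26 and 29 both left out, chosen after the data were seen, they were 696 and 646. With 1 male library left out they ran from 1015 to 1866 and from 820 to 1408. Without a filter on low values they were 1089 and 885, by edgeR 1527 and 1145, and by DESeq2 1680 and 1341. The differences between males and females (245 more positive, 225 more negative) were 133 and 114 without a filter, 147 and 142 with a plain variance prior, 520 and 417 by DESeq2, and 73 and 80 without both active replicates 26 and 29. With 1 library left out they ran from 139 to 465 and from 133 to 315. The cause of these shifts was not tested, other than that leaving out libraries leaves fewer samples.

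Of the named genes, Cenpf, Cldn8, Cxcl1, Cyp2r1, Dusp1, Hsp90ab1, Irs2, Jun, Myc, Slc14a2, Slc5a12 and Zfp36 lost their calls with only the 12 male libraries. Aurkb, Cenpf, Cyp2r1 and Myc lost them with library weights, Cyp2r1, Myc, Slc5a12, Vdr and Zfp36 without a filter, and Vdr with a plain variance prior, under which Nrap passed, as it did by DESeq2. Of the differences between the sexes, those of Cenpf, Jun, Mogat2, Nr1d1, Nrap, Rdh10, Slc6a6 and Zfp36 lost their calls without a filter. With a plain variance prior those of Col1a2, Cyc1, Hmmr, Nr1d1, Rdh10, Slc6a6 and Trpm7 did, by equal totals those of Col1a2, Slc6a6 and Trpm7, with library weights that of Hmmr, and without both active replicates 26 and 29 those of 19 genes. The change in sign was limited to genes that did not pass. The log2 fold of Bhlhe40 was -0.0075 by the upper quartile and -0.0098 by equal totals, and -0.10 to 0.13 with 1 male library left out. That of Hlf ran from -0.030 to 0.014 with 1 left out, and that of Mogat2 from -0.042 to 0.218 with 1 left out and was -0.0034 without both active replicates 26 and 29. Scaling moved the median of all genes to between -0.01 and 0.02, and the medians of the Arntl arm of the clock, and of the chaperone, sterol, ribosomal, respiratory, matrix, division, amino acid and mitochondrial genome lists kept their sign under all 3 other scalings. By equal totals 10 genes of the mitochondrial genome were lower (6 by the authors' factors), and by the upper quartile 7 mitochondrial ribosomal proteins were higher and 3 lower (12 and 0), 3 distal convoluted tubule genes were higher (5), and 3 channel, SGK and aldosterone genes were higher and 4 lower (5 and 2). Of the gluconeogenesis and ammonia genes 5 were higher by edgeR and 6 by DESeq2 (3 in limma), and 5 autophagy genes were lower by the upper quartile (3). On the 1000 genes of highest variance the first component held 17.4% and still set the periods apart.

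Active and inactive libraries of males share no replicate number, so a paired test of the periods was not possible. A male and a female library share each number. Their deviations from the group means correlated by -0.10 to 0.12 over 12 pairs, 1 above 0.1, with 5 of 12 closest to their own number. No clear pairing by number was seen, but such values cannot exclude that the numbers mark a shared origin. What the numbers stand for is not given. With the number as a random replicate block 1457 genes were higher and 1205 lower in males, and 256 and 236 differed between the sexes. As a fixed block the latter were 309 and 222, and Gdf15, Jun, Mogat2, Ndrg1, Nrap and Rdh10 lost their calls. With 32037243 to 37223099 reads a library, genes near the limit of 10 rest on few reads, and folds there carry the largest errors.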
